A study of Mus musculus with 24 samples.

Results

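The 6 genes described here encode receptors for the constant (Fc) part of IgG and the chains they need: Fcgr1, Fcgr3, Fcgr4, Fcgr2b, Fcer1g and Fcgrt. They were chosen by name, and each symbol was matched to 1 of the 54446 gene identifiers that were counted in every library. All 6 passed the filter on low counts. In the mouse, Fcgr1 encodes FcγRI, the high-affinity IgG receptor, and Fcgr3 and Fcgr4 encode the lower-affinity activating receptors FcγRIII and FcγRIV. Fcgr2b encodes FcγRIIb, the inhibitory IgG receptor, which carries an inhibitory motif in its cytoplasmic tail. Fcer1g encodes the FcRγ chain, which carries the activating motif and is needed for the activating receptors to reach the cell surface. Fcgrt encodes the heavy chain of FcRn, which binds IgG inside endosomes and returns it to the cell surface.

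On macrophages and other myeloid cells, IgG bound to a target cross-links the activating receptors, Src-family kinases phosphorylate the FcRγ chain, and Syk is recruited to drive phagocytosis and cytokine release. FcγRIIb opposes this signal through phosphatases, and the balance of activating and inhibitory receptors sets the response of a cell to antibody. N6-methyladenosine (m6A) is a base modification of mRNA, and YTHDF2 is a reader protein that binds it and promotes decay of the marked mRNA.

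CD11b+ myeloid cells came from MC38 tumors, a mouse colon carcinoma line grown under the skin of C57BL/6J mice aged 8 to 10 weeks, both sexes. WT mice were Ythdf2 fl/fl, and Ythdf2-cKO (cKO) mice were Lyz Cre+; Ythdf2 fl/fl, so that Cre acted in cells that use the lysozyme promoter. Tumors received a single dose of 20 Gy (IR) or none (Ctrl), and cells were taken 3 days after IR. Polyadenylated RNA was sequenced before (Input) and after (IP) pulldown with an antibody against m6A, with 3 libraries in each of 8 groups. Each library pooled cells of several mice, and the sources call the replicates technical in one place and biological in another, so p-values measure the spread between these libraries.

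The Input libraries held 65180075 to 83661576 gene counts and the IP libraries 68846321 to 86421888. Itgam, which encodes CD11b, was at a mean of 342 to 403 CPM (counts scaled to a fixed library total) in the 4 Input groups. Ythdf2 itself did not go the way of the labels: its mean Input level was 96.7 CPM in WT Ctrl and 103 CPM in WT IR, against 179 CPM in cKO Ctrl and 226 CPM in cKO IR. These are counts over the whole gene and do not show the floxed part alone. Lyz2, the gene of the lysozyme promoter, was at 20563 and 20276 CPM in the WT Inputs and at 302 and 416 CPM in the cKO Inputs. In the irradiated IP libraries it went against the labels, with 96.7 CPM under the WT label and 20826 CPM under the cKO label. Irradiated IP libraries are therefore used below as the mean of both genotypes, or given by label as a description. WT IR Input replicate 1 stood apart from the other 2 of its group, and results that rest on it are given with and without it.

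Of the 6 genes, 4 lie together on chromosome 1 (mm10, GRCm38): Fcgr2b at chr1:170958617-170976547 (− strand), Fcgr4 at chr1:171018920-171029761 (+ strand), Fcgr3 at chr1:171051174-171064935 (− strand) and Fcer1g at chr1:171229572-171234365 (− strand). Fcgr1 is at chr3:96282909-96293969 and Fcgrt at chr7:45092990-45103851, both on the − strand. Their identifiers are ENSMUSG00000026656.15, ENSMUSG00000059089.4, ENSMUSG00000059498.13, ENSMUSG00000058715.11, ENSMUSG00000015947.10 and ENSMUSG00000003420.8 in that order.

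m6A peaks in all 3 replicates of a group (consensus peaks) were found over Fcgr1, Fcgr2b and Fcgr3, and over none of Fcgr4, Fcer1g and Fcgrt. These 3 of 6 genes carried a consensus peak in each of the 4 IP groups. Of all tested genes, 29.6% carried one in WT Ctrl and 27.7% in cKO Ctrl. After IR the share was 25.1% with the WT label and 22.3% with the cKO label. With peaks of at least 4-fold enrichment over Input, Fcgr1 and Fcgr2b remained in WT Ctrl and Fcgr1 alone in the other 3 groups.

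Fcgr1 was the most strongly marked of the 6. It carried 5 peaks in each of the 12 IP libraries, 4 with summits in the coding part of exons 3, 4, 5 and 6 and 1 in the 3′ UTR, 1060 bases beyond the stop codon along the transcript. Among the 4768 tested genes with a consensus peak in WT Ctrl, the median number of peaks was 2, and 12% had 5 or more. Peaks were called along the genome, so the number in a gene can also depend on its exons, which was not tested. The 3′ UTR summit was the strongest of the Fcgr1 peaks, at 18.01, 15.02 and 17.14-fold over Input in WT Ctrl. The summit in exon 3, an exon of the IgG-binding part, reached 6.04 to 10.9-fold there. Both are shown because they mark the strongest m6A signal of the family, in the direction of the transcript and with the letters GGAC, the core of the common m6A motif, in capitals where they occur:
Fcgr1 3′ UTR summit, chr3:96283204-96283232 (− strand): atgtgaacattagcaaggtatattgGGAC
Fcgr1 exon 3 summit, chr3:96292354-96292454 (− strand): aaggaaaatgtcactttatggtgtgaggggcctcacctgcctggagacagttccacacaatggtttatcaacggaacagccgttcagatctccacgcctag
The exon 3 window holds no GGAC. Searched on the transcript strand in 101 bases around each summit, GGAC was in 3 of the 15 consensus peaks over the Fc receptor genes in WT Ctrl and in 35.2% of all 12181 consensus peaks there. GGACT was in none of the 15 and in 11.5% of all. These are matches of letters only, and an m6A site at other letters or outside the window is not seen by them.

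Fcgr2b carried 5 consensus peaks in cKO Ctrl and 7 in WT Ctrl, where 4.74% of the marked genes had 7 or more. Its highest summit, at 4.96, 5.22 and 5.73-fold in the 3 WT Ctrl libraries, lay 9 bases outside exon 6, in a peak that overlapped that exon. Another lay 14 bases outside exon 5. Of the others, 2 were in coding exons 3 and 4 and 3 in the 3′ UTR, 200, 615 and 2229 bases beyond the stop codon. Fcgr3 carried 3 consensus peaks of lower fold, in coding exons 3 and 4 and in the last exon, with a highest fold of 2.11 to 2.82 in WT Ctrl. In the irradiated libraries with the WT label, Fcgr2b had 1 more peak, at 2.32 to 2.74-fold in an intron, 518 bases from the nearest exon. This peak was called in these 3 libraries and in none of the other 9. The genotype labels of these 3 libraries are in doubt, and which Input their folds were taken over is not given. Fcgrt had a peak in coding exon 5 in 4 of the 12 libraries, at 3.78 to 5.64-fold, and so no consensus peak. Replicate 1 of the irradiated IP libraries with the WT label also had a Fcgrt peak, at 1.69-fold. Fcgr4 had 1 peak in 1 library, at 2.90-fold, and Fcer1g had none in any library.

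**Figure D1:**
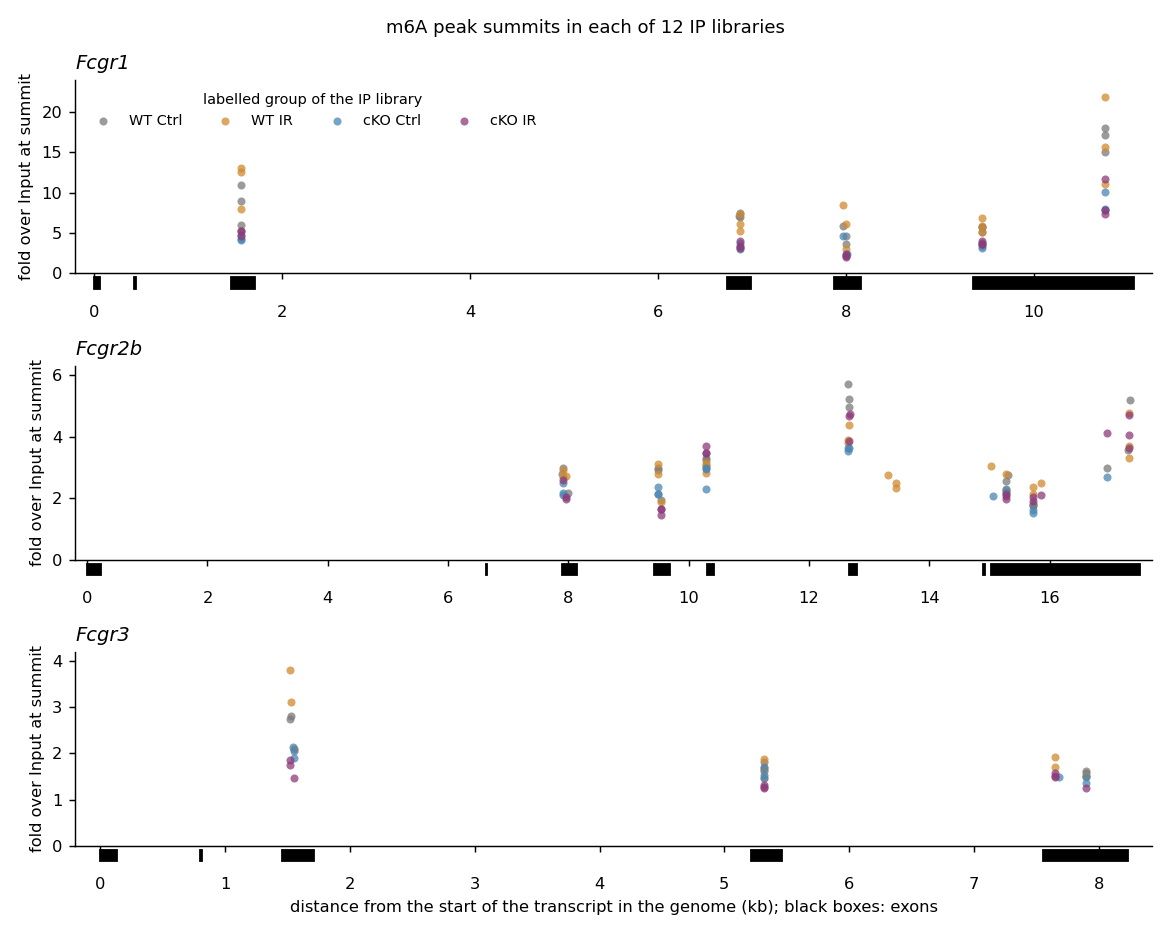
Each point is an m6A peak summit in 1 of 12 IP libraries, coloured by labelled group, for Fcgr1, Fcgr2b and Fcgr3; the horizontal axis gives the distance in the genome from the start of the transcript (kb) with exons as black boxes, and the vertical axis the fold over Input at the summit. The Fcgr1 summit near the end of the transcript is the highest in both unirradiated groups, at 15.02 to 18.01-fold in WT Ctrl and 7.92 to 10.1-fold in cKO Ctrl.

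Fcgr2b and Fcgr3 share sequence under their peaks in exon 4, which limits how reads there can be assigned. Exon 4 has 255 bases in both genes and differs at 5 of them (98% identity), and the longest identical run within it has 113 bases. Exon 3 holds an identical run of 102 bases, which reaches only the edge of the WT Ctrl consensus peaks in that exon. Reads were sequenced in pairs of 100 bases each, and 3.53% of the 100-base windows of the Fcgr3 transcript and 1.28% of those of Fcgr2b occur exactly in the other gene. No other pair among the 6 genes shared a run longer than 14 bases. The exon 4 runs are shown with the shared bases in capitals, in the direction of the transcript:
Fcgr3 exon 4, chr1:171054038-171054180 (− strand): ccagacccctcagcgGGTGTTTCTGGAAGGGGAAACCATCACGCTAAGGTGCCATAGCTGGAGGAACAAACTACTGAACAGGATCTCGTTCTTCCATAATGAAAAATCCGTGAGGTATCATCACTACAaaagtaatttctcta
Fcgr2b exon 4, chr1:170966545-170966687 (− strand): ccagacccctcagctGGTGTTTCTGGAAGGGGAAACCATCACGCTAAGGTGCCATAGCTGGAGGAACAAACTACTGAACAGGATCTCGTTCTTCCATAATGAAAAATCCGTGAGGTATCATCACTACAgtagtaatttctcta
Reads with more than 1 alignment stand on a line of their own in the count files and were not counted to genes. The peaks of both genes in exon 4 are therefore uncertain, while most of each transcript is not shared.

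The order of the genes by Input level per kb of merged exon was the same at the top in every group. Fcer1g led in WT Ctrl with 426 ± 8.45 CPM per kb (SD, n = 3), followed by Fcgr3 with 177 ± 4.25 and Fcgr2b with 21.9 ± 0.406. Fcgrt (10.6 ± 0.406), Fcgr1 (9.55 ± 0.320) and Fcgr4 (7.22 ± 0.227) were lowest there. In cKO IR the order was Fcer1g with 514 ± 20.7, Fcgr3 with 254 ± 4.53, Fcgr2b with 28.3 ± 0.343, Fcgr1 with 14.6 ± 0.299, Fcgr4 with 12.7 ± 0.912 and Fcgrt with 9.66 ± 0.359 CPM per kb. The shared chain was thus the most abundant of the 6 per length, and Fcgrt was last in cKO IR but above Fcgr1 and Fcgr4 in WT Ctrl. Fcgr1 and Fcgr4 lay close to each other in WT IR, at 5.89 ± 0.806 and 6.40 ± 0.518, and did not differ there beyond their spread. Input counts per library ran from 507 (Fcgr4) to 34516 (Fcer1g).

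Without irradiation, 5 of the 6 genes were higher in cKO than in WT Inputs: all but Fcgrt. This comparison sets the groups labelled cKO and WT side by side before IR, and the whole-gene Ythdf2 counts given above went against the cKO label. Of all 16090 genes tested, 15.7% passed the test in either direction, and the median log2 fold change over the 6 genes was 0.31 beside 0.00 over all genes. Fcgr1 was at 23.9, 25.7 and 24.6 CPM (TMM-scaled over the 12 Inputs, as are the Input CPM of the 6 genes up to the m6A results) in WT Ctrl and at 40.6, 40.9 and 42.3 CPM in cKO Ctrl. Every cKO library was above every WT library, and the difference was 1.67-fold (log2 fold change 0.74 ± 0.07 SE, edgeR adjusted p = 1.41e-07).

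Fcgr2b, the inhibitory receptor, was at 127, 125 and 129 CPM in WT Ctrl and at 175, 182 and 175 CPM in cKO Ctrl. The groups did not overlap, and Fcgr2b was 1.40-fold higher in cKO (log2 0.48 ± 0.05 SE, adjusted p = 3.09e-07). Fcgr4 was low throughout, at 8.91 to 9.39 CPM in WT Ctrl and 11.8 to 12.9 CPM in cKO Ctrl, and differed 1.38-fold (log2 0.46 ± 0.08 SE, adjusted p = 0.000237). Fcgr3 and the FcRγ chain differed less: Fcgr3 by 1.11-fold (log2 0.15 ± 0.03 SE, adjusted p = 0.00144) and Fcer1g by less (log2 0.14 ± 0.04 SE, adjusted p = 0.0101). The Fcer1g call was lost without WT Ctrl replicate 1 (adjusted p = 0.0562) or replicate 3 (adjusted p = 0.0528). Fcgrt was at 21.3 to 23.0 CPM in WT Ctrl and 24.1 to 25.4 CPM in cKO Ctrl and did not pass the test (log2 0.15 ± 0.08 SE, adjusted p = 0.233). With only the 6 libraries of the contrast it did (adjusted p = 0.0407).

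**Figure D2:**
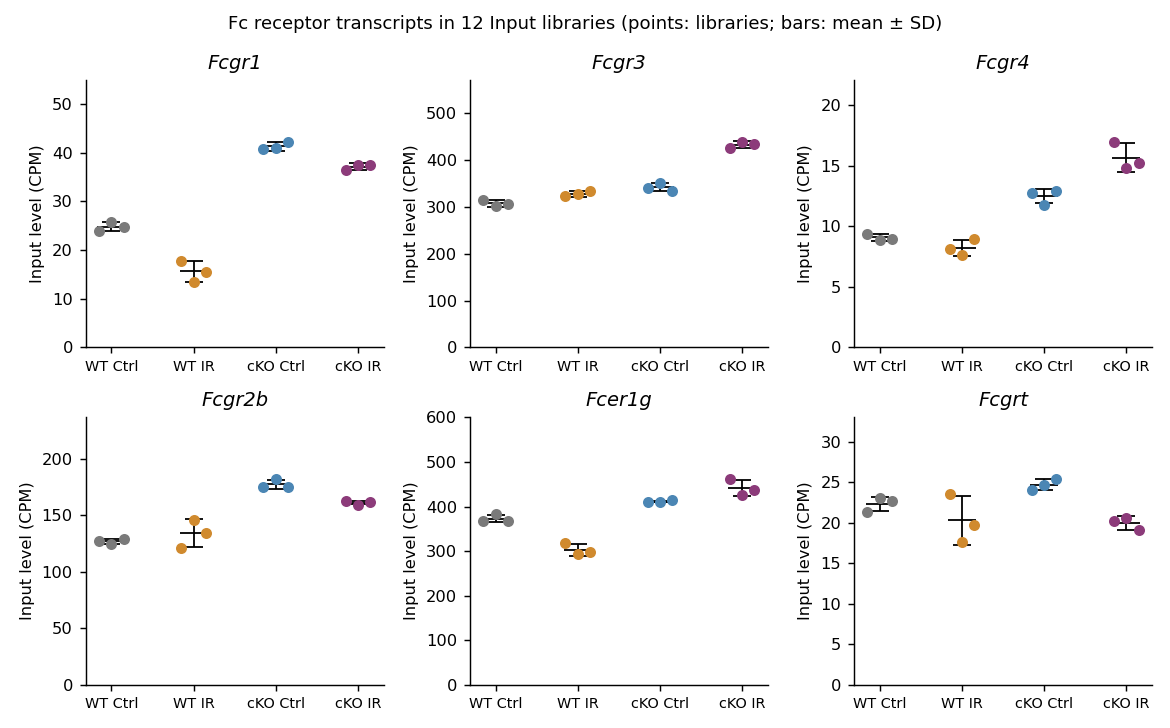
Input level (CPM, TMM-scaled over 12 Inputs; vertical axes start at 0) of each gene in the 2 WT and 2 cKO groups; points are libraries and bars the mean ± SD of 3. Fcgr1 is lowest in WT IR (13.4 to 17.8 CPM) and above 36 CPM in every cKO library.

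In WT Inputs the genes went in different directions after IR. Of the 6, 3 passed the test, beside 31.7% of all genes: Fcgr1 and Fcer1g fell and Fcgr3 rose slightly. Fcgr1 dropped to 17.8, 13.4 and 15.6 CPM in WT IR, all below every WT Ctrl library (1.59-fold lower, log2 -0.67 ± 0.07 SE, adjusted p = 3.37e-07). Fcer1g was at 368, 383 and 369 CPM in WT Ctrl and at 318, 293 and 299 CPM in WT IR, again without overlap (1.23-fold lower, log2 -0.30 ± 0.04 SE, adjusted p = 1.81e-06). The high-affinity receptor and the chain it needs were thus both lower after IR in WT cells.

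Fcgr3 was at 315, 301 and 307 CPM in WT Ctrl and at 323, 328 and 335 CPM in WT IR, a 1.07-fold difference (log2 0.09 ± 0.03 SE, adjusted p = 0.0258). That call did not hold with only the 6 libraries of the contrast (adjusted p = 0.0892), without a count filter (adjusted p = 0.0901), or without WT Ctrl replicate 2 (0.114), WT Ctrl replicate 3 (0.0737) or WT IR replicate 3 (adjusted p = 0.1003). Fcgr2b was at 121, 146 and 135 CPM in WT IR, on both sides of WT Ctrl (log2 0.08 ± 0.05 SE, adjusted p = 0.240). Fcgrt spread from 17.7 to 23.6 CPM in WT IR (log2 -0.14 ± 0.08 SE, adjusted p = 0.196), and Fcgr4 from 7.63 to 8.95 CPM (log2 -0.14 ± 0.08 SE, adjusted p = 0.201). Without WT IR replicate 1, 5 of the 6 genes passed, beside 38% of all genes, with Fcgr2b higher (log2 0.15, adjusted p = 0.00124) and Fcgrt lower (log2 -0.26, adjusted p = 0.00192).

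In cKO Inputs the activating receptors Fcgr3 and Fcgr4 were higher after IR. Of the 6 genes 5 passed the test, beside 45.6% of all genes. Fcgr3 was at 341, 352 and 335 CPM in cKO Ctrl and at 426, 440 and 434 CPM in cKO IR (1.27-fold, log2 0.34 ± 0.03 SE, adjusted p = 1.96e-08). Fcgr4 was at 12.8, 11.8 and 12.9 CPM in cKO Ctrl and at 17.0, 14.8 and 15.2 CPM in cKO IR (1.25-fold, log2 0.33 ± 0.08 SE, adjusted p = 0.00123). In neither gene did the groups overlap.

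Fcgr2b and Fcgrt fell: Fcgr2b from 175 to 182 CPM to between 159 and 163 CPM (log2 -0.14 ± 0.05 SE, adjusted p = 0.0211), and Fcgrt from 24.1 to 25.4 CPM to between 19.1 and 20.6 CPM (log2 -0.31 ± 0.08 SE, adjusted p = 0.00254). The Fcgr2b call was lost without cKO Ctrl replicate 2 (adjusted p = 0.0911) or cKO IR replicate 2 (adjusted p = 0.0722). Fcer1g was 1.07-fold higher (log2 0.10 ± 0.04 SE, adjusted p = 0.0243), a call lost without any 1 cKO Ctrl library or cKO IR replicate 1 (adjusted p 0.0522 to 0.150). Without cKO Ctrl replicate 2, 3 of the 6 genes passed, beside 41.3% of all genes. Fcgr1 was at 36.3 to 37.5 CPM in cKO IR, below cKO Ctrl, and did not pass (log2 -0.15 ± 0.07 SE, adjusted p = 0.0694). It passed with only the 6 libraries of the contrast (adjusted p = 0.00333), with no count filter (0.0351) and without WT IR replicate 1 (0.0103) or WT IR replicate 2 (adjusted p = 0.0135).

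After IR the same 5 genes were higher in cKO than in WT, by up to 2.38-fold. The share of all genes that passed was also high here, 47.7%, and the median log2 fold change was 0.47 over the 6 genes and 0.00 over all. Fcgr1 led (2.38-fold, log2 1.25 ± 0.07 SE, adjusted p = 2.07e-11), followed by Fcgr4 (1.90-fold, log2 0.93 ± 0.08 SE, adjusted p = 5.87e-09) and Fcer1g (1.46-fold, log2 0.54 ± 0.04 SE, adjusted p = 2.16e-10). Fcgr3 was 1.32-fold higher (log2 0.40 ± 0.03 SE, adjusted p = 1.83e-09) and Fcgr2b 1.20-fold (log2 0.27 ± 0.05 SE, adjusted p = 8.93e-05). In each of these 5 genes every cKO IR library was above every WT IR library. How often the libraries of other genes separate in this way, here or in the other Input comparisons, was not tested. Fcgrt differed by log2 -0.02 ± 0.08 SE (adjusted p = 0.841), with overlapping groups. WT Ctrl and cKO IR libraries each serve in 2 of the 4 comparisons, as do the other groups, so the comparisons are not independent of each other.

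**Figure D3:**
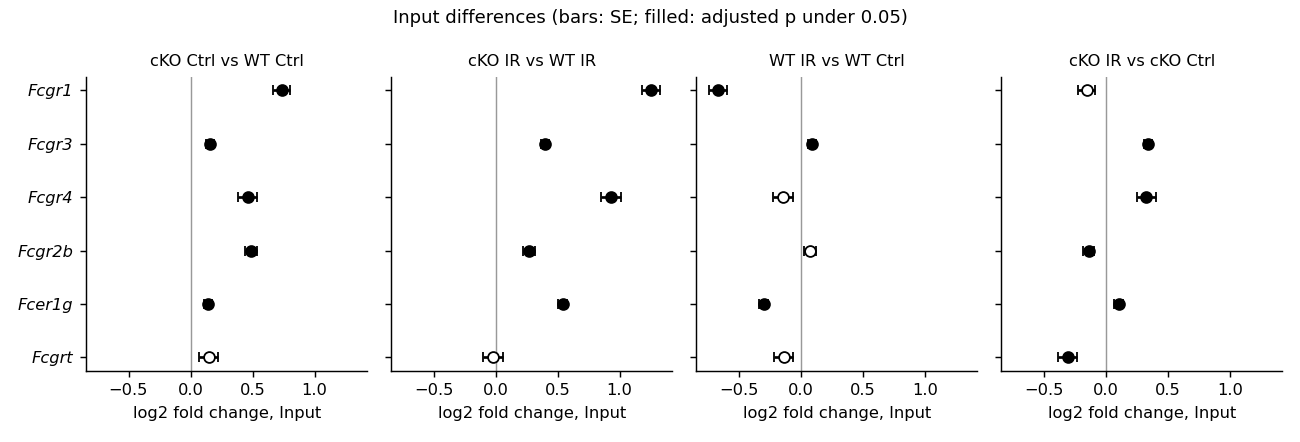
Log2 fold change of each gene between Input groups in 4 comparisons (points, with SE bars; filled points have an adjusted p under 0.05). All genes but Fcgrt lie right of 0 in both cKO against WT panels, and Fcgr1 lies farthest right after IR, at 1.25.

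The response to IR differed between the genotypes in 5 of the 6 genes by the interaction term, beside 30.2% of all genes. The response was higher in cKO for Fcgr1 (log2 0.51 ± 0.10 SE, adjusted p = 0.000408), Fcgr4 (0.47 ± 0.11 SE, adjusted p = 0.00260), Fcer1g (0.40 ± 0.05 SE, adjusted p = 5.6e-06) and Fcgr3 (0.25 ± 0.04 SE, adjusted p = 0.000225). These are the 3 activating receptors and their chain. It was lower in cKO for the inhibitory receptor Fcgr2b (log2 -0.22 ± 0.07 SE, adjusted p = 0.0186), a call lost without cKO Ctrl replicate 2 (adjusted p = 0.0549). For Fcgrt the term was -0.17 ± 0.11 SE on the log2 scale (adjusted p = 0.277), and -0.26 without WT IR replicate 2 (adjusted p = 0.0379).

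The ratio of activating to inhibitory receptor counts, (Fcgr1 + Fcgr3 + Fcgr4) over Fcgr2b within a library, does not depend on how libraries are scaled. It was 2.73, 2.69 and 2.64 in WT Ctrl, 2.87, 2.39 and 2.67 in WT IR, 2.25, 2.22 and 2.22 in cKO Ctrl, and 2.95, 3.09 and 3.001 in cKO IR. All cKO Ctrl libraries lay below all others and all cKO IR libraries above all others, while both WT groups overlapped. Over both genotypes the IR difference was 0.20 on the log2 scale (exact permutation test within genotype, two-sided p = 0.065, where 400 arrangements allow no p below 0.005). Within cKO it was 0.43 (1.35-fold, exact p = 0.1, the smallest that 3 against 3 can give) and within WT -0.03 (exact p = 0.8). Between genotypes the difference was -0.27 without IR and 0.19 after IR (exact p = 0.1 each), and -0.04 over both (exact p = 0.65). Fcgr3 supplies most of the activating counts: with Fcgr1 alone over Fcgr2b, the IR difference was -0.38 (exact p = 0.035) and the cKO against WT difference 0.62 (exact p = 0.005). Split by treatment, the cKO against WT difference with Fcgr1 alone was 0.25 without IR and 0.99 after IR. With Fcgr4 alone it was -0.02 and 0.66, and with Fcgr3 alone -0.33 and 0.13.

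**Figure D4:**
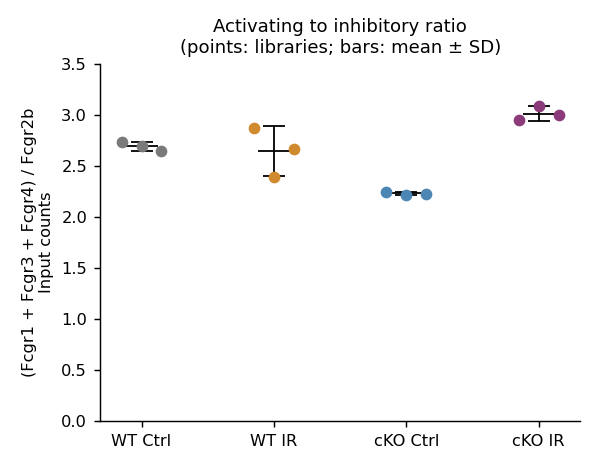
Ratio of Fcgr1, Fcgr3 and Fcgr4 counts to Fcgr2b counts in the 12 Inputs; points are libraries and bars the mean ± SD of 3, with the vertical axis starting at 0. The cKO Ctrl libraries sit between 2.22 and 2.25 and the cKO IR libraries between 2.95 and 3.09.

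In bulk RNA, a change in how many cells of a type were sorted and a change in RNA per cell cannot be told apart. Markers of several myeloid cell types moved between the groups. On the CPM scale without TMM factors, the summed level of 8 macrophage markers, all detected, was 1758 to 1786 CPM in WT Ctrl, 1571 to 1591 in WT IR, 2221 to 2246 in cKO Ctrl and 2034 to 2076 CPM in cKO IR. That of 6 monocyte markers, all detected, was 830 to 892, 316 to 382, 705 to 745 and 442 to 449 CPM in the same order. That of 11 neutrophil markers, all detected, was 3606 to 3731, 829 to 865, 1634 to 1653 and 761 to 773 CPM. That of 6 dendritic cell markers, mostly Ccl22 and with Xcr1 and Cd209a at 0 in WT IR, was 836 to 879, 1282 to 1430, 904 to 921 and 1400 to 1429 CPM. The part of these cell types in the Fc receptor results was not tested. Lymphoid cells that also carry Fc receptors were close to absent: 5 NK cell markers summed to at most 0.239 CPM and 5 B cell markers to at most 1.15 CPM in any Input. Of the mast cell and basophil markers, Mcpt4 was at 0 in every Input, and Kit, which is not specific to them, held most of the sum of 14.04 to 25.04 CPM. Cpa3 was at 3.84 to 4.52 CPM in WT Ctrl and 0.091 to 0.221 CPM in WT IR, and Mcpt8 at 2.55 to 3.68 and 0 to 0.0885 CPM, while the mean of Kit was 16.8 and 20.9 CPM. Cpa3 was at 1.102 to 1.96 CPM in cKO Ctrl and 0.112 to 0.199 CPM in cKO IR.

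Each gene had its own closest companions over the 12 Inputs, by Pearson r of log2 CPM among 8123 genes of at least 10 CPM, all of which share the same 4 groups. Fcgr1 was most like Cd14, the co-receptor for bacterial lipopolysaccharide (r = 0.992), and Tpi1, an enzyme of glycolysis (r = 0.992). Fcgr4 was most like Ms4a6b (r = 0.980) and H2-Aa, an MHC class II chain (r = 0.978), and Fcgr3 like the lectin receptor Cd302 (r = 0.986) and the actin-binding thymosin Tmsb4x (r = 0.986). Fcgr2b was most like Ifih1, the RNA sensor MDA5 (r = 0.988), and Lacc1 (r = 0.978). Fcer1g was most like Actr3, a subunit of the Arp2/3 complex (r = 0.990), and Clic1 (r = 0.986), and Fcgrt like Abcf1 (r = 0.966) and thromboxane synthase Tbxas1 (r = 0.954). Among the 6 genes, Fcer1g and Fcgr1 were closest (r = 0.947) and Fcgr3 and Fcgrt went most against each other (r = -0.378).

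Of 18 genes listed for signalling downstream of activating Fc receptors, 4 rose and 11 fell after IR in WT. Of all genes, 14.7% rose and 17% fell there. The largest changes were in the kinase Fyn (log2 0.57 ± 0.05 SE), the GTPase Rac2, which serves phagocytosis and the oxidative burst (-0.54 ± 0.04), and the PI3K subunit Pik3r1 (0.46 ± 0.04). In cKO IR against WT IR, 8 were higher and 7 lower, beside 23.9% and 23.8% of all genes, and the lower ones included the ubiquitin ligase Cbl (-0.55 ± 0.03) and Pik3r1 (-0.43 ± 0.04). The median over the 18 genes was -0.18 in the first comparison and 0.00 in the second, beside 0.01 and 0.00 over all genes.

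Of 8 genes of inhibitory signalling, 1 rose and 4 fell after IR in WT, beside 31.7% of all genes in either direction. Among those that fell were the phosphatase Ptpn6 (log2 -0.43 ± 0.05 SE), the adaptor Dok2 (-0.38 ± 0.04) and the kinase Csk (-0.36 ± 0.05), which restrains Src-family kinases. In cKO IR against WT IR, 4 were higher and 2 lower, beside 47.7% of all genes in either direction. Dok2 (0.60 ± 0.04) and Ptpn6 (0.44 ± 0.05) were higher, while Inpp5d, the inositol phosphatase SHIP-1 that FcγRIIb recruits, was lower (-0.44 ± 0.04). The medians over the 8 genes were -0.09 and 0.13.

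Fcer1g also serves other receptors. Of 11 genes listed as its partners, like chains or related receptors, 9 passed the count filter. After IR in WT, 4 of the 9 rose and 2 fell, beside 31.7% of all genes. Among those that rose were the ζ chain Cd247 (log2 1.04 ± 0.22 SE) and the Dectin-2 gene Clec4n (0.32 ± 0.03). Ms4a2, the β chain of the IgE receptor, fell from 91 to 121 counts in WT Ctrl to 1 count in each WT IR library, and the mast cell and basophil markers Cpa3 and Mcpt8 were lower there as well; their part in this result was not tested. In cKO IR against WT IR, 7 were higher and 1 lower, beside 47.7% of all genes, and the higher ones included Clec4e, which encodes Mincle (1.09 ± 0.05), and the platelet collagen receptor Gp6 (1.31 ± 0.31, with 38 to 139 counts per library). Ms4a2 had 0 to 14 counts in cKO IR. Fcer1a, the IgE-binding chain, had at most 24 counts in any Input and did not pass the filter. The medians over the 9 genes were 0.16 and 0.43, beside 0.01 and 0.00 over all genes.

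Of 10 other Fc receptors and Fc receptor-like genes, 6 passed the filter. After IR in WT, 3 fell and none rose, beside 31.7% of all genes in either direction. They were Fcrls (log2 -0.70 ± 0.08 SE), Fcrl1 (-0.79 ± 0.13) and Fcrl5, which went from 12 to 18 counts per library to between 0 and 7. In cKO IR against WT IR, 3 of the 6 passed, near the 47.7% of all genes, and all 3 were higher: Trim21, the antibody receptor of the cytosol (0.53 ± 0.06), Fcrls (0.25 ± 0.08) and Fcrl5 (4 to 19 counts per cKO IR library). Fcrlb had 53 to 95 counts and Fcrla 1 to 15 in any Input, and neither passed the test in either comparison. The medians over the 6 genes were -0.63 and 0.39. B2m, the light chain that pairs with Fcgrt, was higher after IR in WT (0.12 ± 0.04) and in cKO IR against WT IR (0.20 ± 0.04).

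m6A IP over Input separated the 6 genes into 3 enriched and 3 not. The value is a log2 ratio of TMM-scaled levels from 1 fit to all 24 libraries, so it is relative to the typical gene. In WT Ctrl 5 of the 6 passed the test, in cKO Ctrl all 6 and in the mean of both genotypes after IR all 6, beside 75.5%, 73.7% and 80.3% of all 17373 genes tested. In each of these 3 comparisons, 3 of the 6 were enriched, beside 38.1%, 37.8% and 40.1% of all genes. The number of enriched genes was thus not far from that share. Fcgr1 was at 25.8, 27.8 and 26.6 CPM in the WT Ctrl Inputs (TMM-scaled over the 24 libraries, as are all CPM below) and at 419, 415 and 414 CPM in the IPs. That is a 15.6-fold enrichment (log2 3.96 ± 0.05 SE, adjusted p = 3.31e-35), higher than in 98.5% of all tested genes.

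Fcgr2b was enriched 4.92-fold (log2 2.30 ± 0.04 SE, adjusted p = 6.97e-31) and Fcgr3 2.83-fold (adjusted p = 5.7e-32) in WT Ctrl, above 94% and 86.2% of all genes. Fcgr4 (log2 -1.26 ± 0.10 SE, adjusted p = 1.94e-13) and Fcer1g (-0.62 ± 0.03 SE, adjusted p = 1.02e-18) were lower in IP than in Input. Fcgrt was at 23.0 to 24.9 CPM in Input and 21.9 to 23.8 CPM in IP (log2 -0.09 ± 0.07 SE, adjusted p = 0.299). The 3 genes enriched in IP were the 3 with a consensus peak, and both readouts come from the same IP libraries.

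In cKO Ctrl the enrichment was lower for 4 of the 6 genes, beside 22.6% of all genes that differed in either direction. In the same comparison 9 of 11 neutrophil markers were higher and none lower (median log2 1.41). Of 8 macrophage markers, 2 were higher and 3 lower (median 0.01). The part of these cell types in the m6A results of the 6 genes was not tested. Fcgr1 was at 44.2, 44.5 and 45.7 CPM in the cKO Ctrl Inputs and at 268, 279 and 273 CPM in the IPs, a 6.10-fold enrichment. The Input was thus higher than in WT Ctrl and the IP lower, and the log2 IP over Input differed by -1.35 ± 0.06 SE (adjusted p = 3.35e-17), lower than in all but 3.85% of genes. Fcgr2b differed by -0.59 ± 0.06 SE (adjusted p = 7.06e-10). Its IP level was 657 to 686 CPM in WT Ctrl and 607 to 664 CPM in cKO Ctrl, with overlap, while its Input level was 135 to 139 and 189 to 199 CPM. Fcer1g (-0.30 ± 0.04 SE, adjusted p = 2.45e-06) and Fcgr3 (-0.17 ± 0.03 SE, adjusted p = 0.000388) were also lower in cKO. Fcgrt (-0.27 ± 0.10 SE, adjusted p = 0.0584) and Fcgr4 (0.34 ± 0.14 SE, adjusted p = 0.0704) did not pass. With only the 12 Ctrl libraries both passed (adjusted p = 0.0125 and 0.0439), Fcgr4 also with DESeq2 (adjusted p = 0.041), and Fcgrt also without WT IR Input replicate 1 (0.0164), WT IR Input replicate 2 (0.0259) or cKO Ctrl IP replicate 2 (0.0209).

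Peak fold went the same way for Fcgr1, as a description from the authors' peak calls on these libraries. At the 3′ UTR summit it was 15.02 to 18.01 in WT Ctrl and 7.92 to 10.1 in cKO Ctrl. At exon 3 it was 6.04 to 10.9 and 4.16 to 4.79, at exon 4 6.99 to 7.501 and 2.97 to 3.72, and at the coding summit of exon 6 5.18 to 5.80 and 3.10 to 3.76. At exon 5 the ranges overlapped, 3.70 to 5.92 and 2.30 to 4.70. So 4 of the 5 summits had no overlap between the groups. All 5 lie in the same gene and were called on the same libraries, so they are not separate results. Each fold is a ratio over Input, and the Fcgr1 Input level was higher in cKO Ctrl than in WT Ctrl. How often peaks of other genes separate in this way was not tested. Over all genes, consensus peaks of at least 4-fold enrichment numbered 3719 in WT Ctrl and 3240 in cKO Ctrl.

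**Figure D5:**
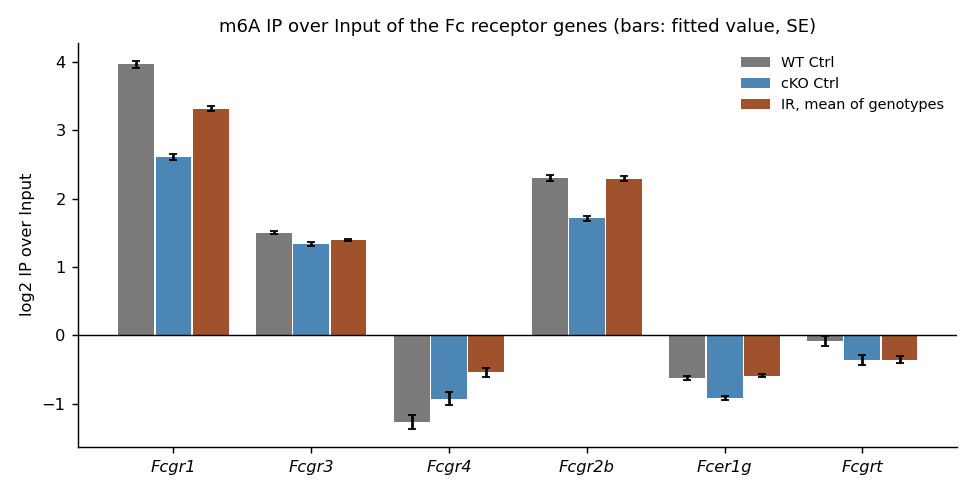
Fitted log2 ratio of IP to Input (bars, with SE) for each gene in WT Ctrl, cKO Ctrl and the mean of both genotypes after IR. Fcgr1 is highest in all 3 and drops from 3.96 in WT Ctrl to 2.61 in cKO Ctrl, while Fcgr4 and Fcer1g lie below 0.

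After IR, with both genotypes averaged, 3 of the 6 genes differed from Ctrl in IP over Input, beside 48.4% of all genes. Fcgr4 (log2 0.55 ± 0.09 SE, adjusted p = 7.77e-06), Fcgr2b (0.29 ± 0.04 SE, adjusted p = 2.23e-07) and Fcer1g (0.18 ± 0.03 SE, adjusted p = 8.5e-06) were higher. Fcgr4 and Fcer1g were still lower in IP than in Input after IR (log2 -0.54 and -0.59) and had no consensus peak. Fcgr1 (0.03 ± 0.05 SE, adjusted p = 0.618), Fcgr3 (-0.02 ± 0.02 SE, adjusted p = 0.483) and Fcgrt (-0.14 ± 0.08 SE, adjusted p = 0.143) did not pass. In the same comparison 11 of 11 neutrophil markers were higher (median log2 1.53). Of 8 macrophage markers, 5 were higher and 2 lower (median 0.31). The part of these cell types was not tested here either. Without WT IR Input replicate 1 the Fcgr1 value was 0.08 (adjusted p = 0.0487) and without WT IR Input replicate 2 it was -0.02 (adjusted p = 0.752). Without WT IR Input replicate 2 Fcgrt passed (log2 -0.18, adjusted p = 0.0278). By label, the IP levels of Fcgr1 were 207, 201 and 202 CPM with the WT label and 320, 329 and 332 CPM with the cKO label. Those of Fcgr2b were 645 to 692 and 897 to 905 CPM, and those of Fcgr4 8.45 to 10.9 and 6.70 to 7.84 CPM. Fcgr1 and Fcgr2b were thus higher, and Fcgr4 lower, in the irradiated IP libraries with high Lyz2, whose genotype labels are in doubt.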

How the data were processed

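Per the labels and the study's methods, m6A MeRIP-seq was done on polyadenylated RNA of CD11b+ cells. Trimming (Trimmomatic 0.39), alignment (HISAT, mm10) and counting (HTSeq) were done by the authors, and the deposited values are raw counts per gene and library. Peaks were called by the authors with MACS2 per library and strand. Which Input served as control for each IP library is not given in the sources used here. The deposited peak lists hold fold enrichment as a ratio over Input, −log10 p-values and −log10 q-values (lowest 2.00), and a whole-number score from the peak caller. Summary lines that name no gene were left out. Those for reads in no gene or in several made 5.335 to 9.071% of such reads and gene counts together, and reads with several alignments have a further line.

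Symbols, positions and exons came from GENCODE vM21 on GRCm38, which matched 54409 of 54446 identifiers. Peak sequences were read from the RefSeq copy of GRCm38. Genes with 10 or more counts in 3 or more libraries were scaled by TMM and fitted in edgeR (4.0.16, R 4.3.3) with its quasi-likelihood test, and p-values were adjusted over all genes by Benjamini-Hochberg. Input contrasts used 12 libraries in 1 fit (16090 genes) and IP over Input 24 libraries (17373 genes). Consensus peaks overlapped by at least 1 base on 1 strand in all 3 replicates. Ratios were compared with exact permutation tests, two-sided, within the other factor. Code was tested on simulated data. The level per kb used all merged exons of a gene.

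The genes named are the 6 receptors and chains, their 2 closest genes by correlation, up to 3 of the largest called changes per list in 2 comparisons, all other Fc receptors tested, and label checks. A gene that this rule would name is not reported here. Fcer1a, Fcrla and Fcrlb were described whether or not they passed. Members and lists were chosen with earlier results of these data known. Alternatives were RLE scaling, DESeq2 1.42.0, other count filters, a replicate block, fewer libraries, leaving out each library, other ratios and other peak rules. Replicate numbers did not pair the Input groups with each other (pairing of IP with Input was not checked), and whether an IP and an Input came from the same RNA is not given in the sources used here.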

Additional observations from a re-analysis of the deposited data

Results flagged for a closer look

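The effect of IR on Input levels differed between cKO and WT by the interaction term for 5 of the 6 genes: Fcgr1 (log2 0.51), Fcgr4 (0.47), Fcer1g (0.40), Fcgr3 (0.25) and Fcgr2b (-0.22), with adjusted p from edgeR of 5.6e-06 to 0.0186. Of all genes, 30.2% passed that test. Fcgr1 and Fcer1g fell in WT, and Fcgr1 did not pass the test in cKO (-0.15). Fcgr3 and Fcgr4 rose in cKO, and Fcgr3 also rose slightly in WT (0.34 in cKO, 0.09 in WT). Fcgr2b fell in cKO (-0.14) and did not pass in WT (0.08).

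The m6A IP over Input of 4 genes differed between unirradiated cKO and WT by the test of the difference: Fcgr1 (log2 -1.35), Fcgr2b (-0.59), Fcer1g (-0.30) and Fcgr3 (-0.17). Of all genes, 22.6% differed there. Between IR and Ctrl, averaged over genotypes, the IP over Input differed for Fcgr4 (0.55), Fcgr2b (0.29) and Fcer1g (0.18). These are 3 of the 6 genes, near the 48.4% of all genes that differed. Fcgr4 and Fcer1g were still lower in IP than in Input after IR.

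The activating to inhibitory ratio was lower in every cKO than in every WT library without IR (-0.27 on the log2 scale) and higher after IR (0.19). The difference between these 2 differences was not tested. The change of sign depended on the receptors counted. With Fcgr1 alone over Fcgr2b, the values without and after IR were 0.25 and 0.99, and with Fcgr4 alone -0.02 and 0.66. With Fcgr3 alone they were -0.33 and 0.13, and the groups overlapped after IR.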

How the results depend on the processing

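Of 60 gene results (6 genes in 10 comparisons), 45 kept their direction and their side of the 0.05 threshold under every alternative, as did 1359 of 1392 single values. Leaving out 1 library moved the number of the 6 genes called in Input from 2 to 5 for IR in WT (3 with all), from 3 to 6 for IR in cKO (5 with all), from 4 to 5 for cKO against WT without IR, and from 4 to 6 for the interaction, and left it at 5 for cKO against WT after IR. Leaving out 1 library moved the ratio difference on IR between 0.17 and 0.24, with exact permutation p = 0.025 without WT IR replicate 2, and that between genotypes between -0.075 and -0.0079. The ratio on IR was 0.25 with Fcgr3 alone (p = 0.04) and -0.38 with Fcgr1 alone (p = 0.035), and that between genotypes turned to 0.62 with Fcgr1 alone (p = 0.005) and 0.32 with Fcgr4 alone (p = 0.06), all by exact permutation. With peaks of at least 4-fold enrichment, 2 genes kept a consensus peak in WT Ctrl and 1 gene in each of the other 3 groups (3 with all peaks). With peaks found in at least 2 of 3 replicates, 4 genes had one in WT Ctrl, Fcgrt among them, and 3 in each other group. Signs that turned in genes that were not called were those of Fcgrt in cKO IR against WT IR, from -0.11 to 0.10 over the libraries left out (0.10 without WT IR Input replicate 1, 0.0097 without cKO IR Input replicate 3), and of Fcgr1 in IP over Input on IR, from -0.017 to 0.084 (-0.017 without WT IR Input replicate 2); the cause was not tested.

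Same-numbered Input libraries did not deviate together (18 pairs, r from -0.393 to 0.285, 2 of them over 0.1), so numbers do not pair them; with the replicate number as a block, 3 of the 6 genes passed on IR in WT as before, and none of the 60 gene results changed its call. Over all genes, cKO against WT without IR called 3870 with only the 6 libraries of that contrast and 2520 in the 12-library fit. Fcgr4, with 507 to 1235 Input counts per library, is the gene whose small differences depth limits most.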

Other observations

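Other Fc receptor genes also differed in m6A IP over Input in WT Ctrl (edgeR, 24 libraries). Of the 6 tested, 4 were enriched, among them the microglia- and macrophage-expressed Fcrls (log2 2.70 ± 0.05 SE) and the cytosolic antibody receptor Trim21 (1.08 ± 0.05 SE), and Fcrl1 and Fcrl5 were lower in IP than in Input. The median over the 6 was 1.69, beside 0.02 over all genes, of which 75.5% passed in either direction and 38.1% were enriched.

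Of the 18 genes of Fc receptor signalling, 15 were higher and 1 lower in IP over Input after IR than in Ctrl, averaged over genotypes (median log2 0.37, beside -0.01 over all genes, of which 48.4% passed). In the same comparison 11 of 11 neutrophil markers (median 1.53) and 5 of 5 CD11b+ myeloid markers (median 0.49) were higher, and their part in this result was not tested. In cKO Ctrl against WT Ctrl, 4 of the 18 signalling genes were higher and 10 lower (median -0.17). Of all genes, 10.1% were higher and 12.5% lower there. In that comparison 9 of 11 neutrophil markers were higher and none lower (median 1.41), and their part was not tested. Of the 8 genes of inhibitory signalling, 6 were higher and none lower on IR (median 0.19), beside 48.4% of all genes in either direction.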
